A study of Mus musculus with 20 samples.

Results

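A set of 10 mechanosensing genes was followed in tibial bone of mice given dexamethasone (DEX) and tibial axial loading. They were Piezo1, Piezo2, Trpv4, Pkd1, Pkd2, Tmem63a, Tmem63b and Kcnk2, which encode stretch- or force-responsive channels and channel partners, Gja1, which encodes connexin 43, and Panx1, which encodes pannexin 1. They were taken by symbol, 10 genes of the 54446 in the table, and each symbol had 1 gene identifier and passed the filter on low counts in every comparison. All mice were 3-month-old C57BL/6J males, injected subcutaneously for 5 days with 1 mg/kg DEX or with water for injection (vehicle). The left tibia was compressed along its axis to 13 N for 40 cycles a session, with sessions named in the sample labels on days 1 and 3, and the right tibia was not loaded. Total RNA came from the whole tibia after pulverisation, so each library mixes osteocytes with osteoblasts, marrow and adhering tissue. The 4 groups of 5 libraries were vehicle unloaded (Vehicle_Ctrl), vehicle loaded (Vehicle_Load), DEX unloaded (DEX_Ctrl) and DEX loaded (DEX_Load). A single vehicle column in each limb is numbered 6 in the table, whereas the sample labels number that group 1 to 5, so it was placed by group only and is called unnumbered here. DEX unloaded replicate 4 was left out of the comparisons, since the study removed a DEX data set with that number, which leaves 4 libraries in that group. Which limb the study meant is not certain, so fits with that library, and without DEX loaded replicate 4 instead, are given as alternatives.

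Mechanosensitive ion channels open when force acts on the membrane or on the structures tied to it. PIEZO1 is a calcium-permeable channel that bone-forming cells and osteocytes use to sense load, and PIEZO2 is its closest relative, best known from sensory neurons. TRPV4 is a calcium-permeable channel that responds to cell swelling and fluid flow, and polycystin 1 and polycystin 2, the products of Pkd1 and Pkd2, form a complex known from the primary cilium. TMEM63A and TMEM63B belong to the OSCA/TMEM63 family of stretch-activated channels, and Kcnk2 encodes TREK-1, a potassium channel that opens with membrane stretch. Connexin 43 is the main gap junction protein of osteocytes and osteoblasts, joining the processes of neighbouring osteocytes, and pannexin 1 forms channels through which ATP leaves the cell. Glucocorticoids such as DEX act through a nuclear receptor and, in excess, lower bone formation.

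The promoters of Piezo1 and Gja1 are shown because Gja1, the most abundant member, was lower in the DEX group in both limbs, and Piezo1, against which the others were set, passed the threshold in neither by edgeR. Each is the RefSeq window of 250 bases up to the transcription start, read 5′ to 3′ along the gene on GRCm38.p6, with a searched motif in capitals. For Piezo1 (chr8:122551330-122551579, minus strand) the capitals mark a GC box, GGGCGG, 40 bases before the start. For Gja1 (chr10:56377050-56377299, plus strand) they mark an AP-1 site, TGAGTCA, 19 bases before the start.
Piezo1: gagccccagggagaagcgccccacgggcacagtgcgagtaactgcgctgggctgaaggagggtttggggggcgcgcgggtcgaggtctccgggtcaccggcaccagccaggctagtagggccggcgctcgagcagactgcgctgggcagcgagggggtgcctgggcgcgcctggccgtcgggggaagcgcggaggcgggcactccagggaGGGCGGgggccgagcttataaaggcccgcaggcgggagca
Gja1: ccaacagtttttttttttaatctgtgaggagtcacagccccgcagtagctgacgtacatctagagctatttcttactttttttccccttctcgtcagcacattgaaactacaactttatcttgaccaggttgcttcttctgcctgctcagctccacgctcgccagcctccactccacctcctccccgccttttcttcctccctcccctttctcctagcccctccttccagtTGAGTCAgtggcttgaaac
RefSeq promoters were found for 9 of the 10 genes, 12 windows in all because Kcnk2 has 4, and motifs were searched on both strands. A glucocorticoid receptor half-site, AGAACA, lay in 1 of the 12 windows, in Kcnk2, against 16.1% of all 32851 promoters. The full palindromic response element of the receptor lay in none of the 12 and in 0.00913% of all. AP-1 sites, searched as TGANTCA, lay in 2 of 12, Gja1 and Kcnk2, against 6.75% of all, and GC boxes in 6 of 12 against 32.7%. These matches describe the letters of the windows and say nothing of binding.

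Library totals ran from 4641437 to 13032018 counts, and each member had at least 34 counts in every library compared. DEX loaded replicate 4 stood apart, with the lowest total and a median Spearman correlation of 0.407 with its group against 0.451 to 0.663 in the other 19 libraries. Reads in olfactory and vomeronasal receptor genes, which bone should not express and which are used here as a measure of background reads, summed to 391 to 1364 normalized counts (CPM, scaled by library size) in vehicle unloaded, 261 to 932 in vehicle loaded, 800 to 2918 in DEX unloaded and 1097 to 6494 in DEX loaded libraries, the last in DEX loaded replicate 4. No gene of the osteocyte or osteoblast marker lists was at 0 throughout a group, and the osteocyte markers summed to 752 to 2839 CPM over the libraries compared. Differences in background and markers are given with the results, and their part in them was not tested.

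Expressed per length, as CPM per kilobase of annotated exon (RPKM), Gja1 was the highest of the 10 genes in every group. It averaged 49.8 ± 13.8 RPKM (SD, n = 5) in vehicle unloaded, 47.0 ± 5.15 in vehicle loaded, 21.8 ± 7.83 (n = 4) in DEX unloaded and 16.9 ± 5.35 (n = 5) in DEX loaded tibiae. In both vehicle groups its lowest library was above the highest library of the next gene, whereas in both DEX groups its range overlapped that of Piezo1. Piezo1 averaged 15.4 ± 3.31, 18.9 ± 3.71, 13.9 ± 0.464 and 12.5 ± 3.06 RPKM in the same order of groups. Pkd2 and Pkd1 lay beside it, at 14.2 to 18.2 RPKM in the vehicle groups and 9.79 to 11.7 in the DEX groups, and in every group the ranges of neighbours among these 3 genes overlapped. Tmem63a followed at 8.39 to 10.96 RPKM and Tmem63b at 3.90 to 5.61. Kcnk2, Trpv4 and Panx1 all averaged between 1.22 and 3.22 RPKM. Piezo2 was the lowest in 3 groups, at 0.550 to 1.10 RPKM, and rose in the order only in vehicle loaded tibiae, where it averaged 3.51 ± 2.48. With the longest transcript as the length, Gja1 was again first and Pkd2 came before Piezo1 in every group rather than in vehicle unloaded tibiae alone, so the order of those 2 genes depends on the length used.

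**Figure D1:**
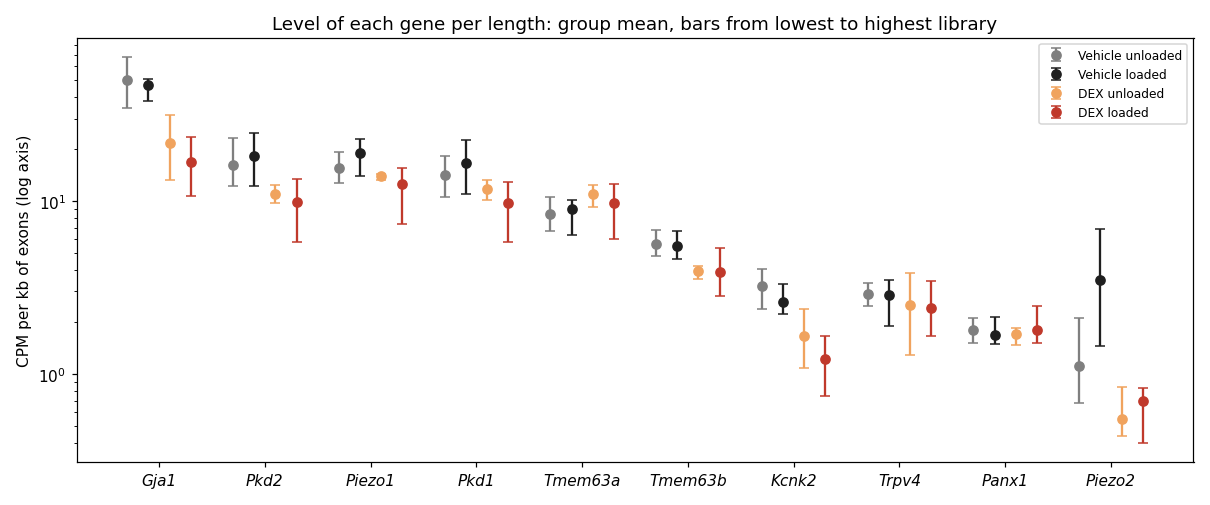
Level of each of the 10 genes as CPM per kilobase of exon on a log axis, with points for the mean of each group and bars from the lowest to the highest library. Gja1 is highest in every group, and its DEX groups, at 21.8 and 16.9, lie below its vehicle groups, at 49.8 and 47.0.

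DEX against vehicle in loaded tibiae asks how DEX changed these genes in bone under load. Of the 10 genes, 4 were significantly lower with DEX, Gja1, Piezo2, Kcnk2 and Pkd2, and none was higher (edgeR quasi-likelihood test, Benjamini-Hochberg adjusted p under 0.05 over 19780 genes). Over all genes tested, 21.3% passed in either direction and 8.35% were lower, and of genes of at least 10 CPM, the class most members belong to, 14.4% were lower. The median log2 fold change (log2FC) of the members was -0.64, against 0.00 over all genes and -0.17 over those of at least 10 CPM.

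Gja1, the gap junction gene, had 520, 507, 486, 390 and 505 CPM in vehicle loaded replicates 1, 2, 4, 5 and the unnumbered library. With DEX, the loaded tibiae had 186, 241, 204, 109 and 126 CPM in replicates 1 to 5. The groups did not overlap, and the highest DEX library was well under the lowest vehicle library. Its log2FC was -1.43 ± 0.21 (SE), 2.702-fold lower, with an edgeR adjusted p of 0.00156, and of at most 0.00562 whichever library was left out. Of all genes tested, 8.85% had groups that did not overlap and were lower with DEX, and of the members these were Gja1, Piezo2 and Kcnk2. In whole bone, fewer cells of a type and less RNA per cell cannot be told apart.

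Piezo2, the second Piezo channel, had 118, 35.7, 28.9, 25.0 and 93.6 CPM in the vehicle loaded libraries, in the same order. The DEX loaded libraries had 13.8, 13.03, 12.2, 14.2 and 6.83 CPM. Every DEX library was lower than every vehicle library, but 2 vehicle libraries, replicate 1 and the unnumbered one, held levels far above the other 3. The log2FC was -2.29 ± 0.42 (edgeR adjusted p = 0.00482), the most negative of the 10.

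Kcnk2, the TREK-1 potassium channel, had 12.1, 13.8, 11.01, 11.3 and 16.4 CPM in vehicle loaded tibiae and 6.58, 8.23, 6.198, 5.35 and 3.68 CPM in DEX loaded tibiae. All 5 DEX libraries were below all 5 vehicle libraries, with a log2FC of -1.06 ± 0.20, 2.08-fold lower (edgeR adjusted p = 0.00662). Of its exonic bases, 12.2% are shared with an antisense gene, A430027H14Rik, which had a log2FC of +0.82 ± 0.45 (edgeR adjusted p = 0.202). The strand setting of the counting is not given in the sources used here. Pkd2, polycystin 2, had 253, 158, 158, 124 and 231 CPM with vehicle and 116, 137, 111, 59.1 and 76.2 CPM with DEX. The highest DEX library was above the lowest vehicle library, and the log2FC was -0.84 ± 0.24 (edgeR adjusted p = 0.0269). The Pkd2 call was lost, at adjusted p of 0.0515 to 0.0592, without DEX loaded replicate 5, vehicle loaded replicate 1 or the unnumbered vehicle loaded library.

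Piezo1 had 221, 187, 167, 138 and 226 CPM in the vehicle loaded libraries and 129, 155, 130, 72.8 and 133 CPM in the DEX loaded libraries. DEX loaded replicate 4, at 72.8 CPM, was the lowest of all 20 libraries, the remaining DEX libraries lay between 129 and 155 CPM, and the vehicle library at 138 CPM fell inside that range. The log2FC was -0.56 ± 0.19 (95% interval -0.93 to -0.18), which did not pass after adjustment (edgeR adjusted p = 0.0544, against 0.0121 before adjustment). Without DEX loaded replicate 4 it was -0.43 (adjusted p = 0.0627), without DEX loaded replicate 2 the adjusted p was 0.0320, and without vehicle loaded replicate 5 it was 0.0329, so 1 library on either side moved it across the threshold. DESeq2 gave -0.56 with an adjusted p of 0.0210. Ctu2, a tRNA-modifying gene on the opposite strand, shares 24.6% of the exonic bases of Piezo1, and had a log2FC of -0.06 ± 0.19 (edgeR adjusted p = 0.826). The part of opposite-strand reads in the Piezo1 counts was not tested.

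The other 5 genes did not pass. Pkd1, polycystin 1, had a log2FC of -0.72 ± 0.24 at an edgeR adjusted p of 0.0501, with 191 to 391 CPM in vehicle and 100.5 to 224 CPM in DEX libraries, and Tmem63b one of -0.45 ± 0.17 (adjusted p = 0.0665). Tmem63a had a log2FC of +0.15 ± 0.18 (adjusted p = 0.562), Trpv4 one of -0.19 ± 0.24 (adjusted p = 0.581) and Panx1 one of +0.13 ± 0.18 (adjusted p = 0.639). Thus the members ranged from Gja1 and Piezo2, lower in every DEX library, to Tmem63a and Panx1, whose groups overlapped. At an unadjusted edgeR p under 0.05 there were 7 members, where 37.2% of all genes were, and DESeq2 called 7 members and 28.6% of all genes.

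**Figure D2:**
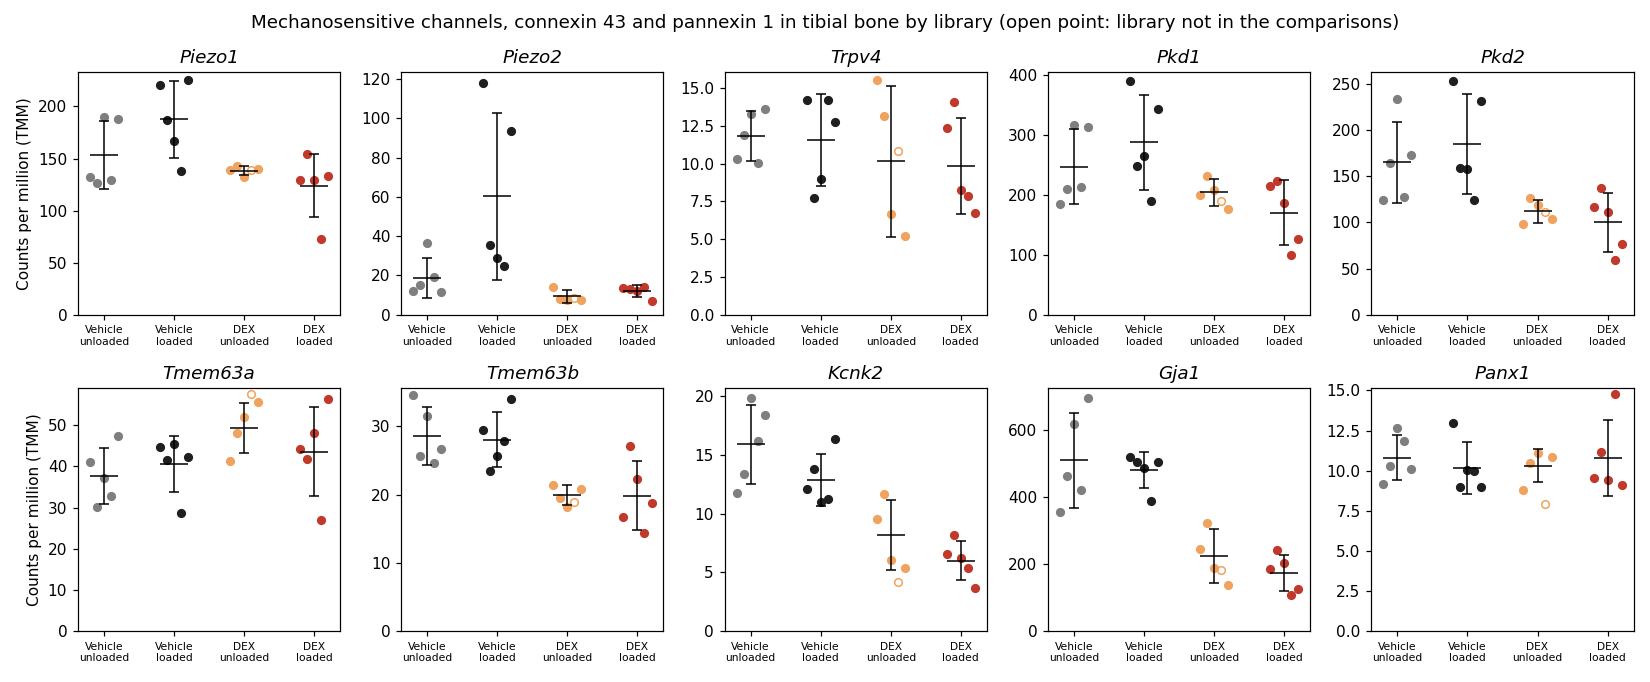
Level of each gene in CPM by library on linear axes from 0, with points for libraries, horizontal lines for group means and bars for the SD, and an open point for DEX unloaded replicate 4, which is in no comparison and in no mean. The DEX loaded points of Gja1 (109 to 241 CPM) lie under all vehicle loaded points (390 to 520), whereas those of Piezo1, Tmem63a and Panx1 overlap.

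Values that moved with these differences were as follows. Osteoblast markers summed to 63882 to 95515 CPM in vehicle loaded and 4713 to 23291 CPM in DEX loaded libraries, with 11 of 12 significantly lower (median log2FC -1.86). Osteocyte markers summed to 1639 to 2769 and 752 to 1539 CPM, with 7 of 9 lower and 1 higher (median log2FC -0.84). Chondrocyte markers were lower in 11 of 12 tested, periosteum and tendon fibroblast markers in 7 of 9, B cell markers in 6 of 7 and endothelial markers in 1 of 8. Neutrophil markers were higher in 7 of 8, adipocyte markers in 3 of 6, and skeletal muscle and Schwann cell markers in 1 of 12 and 1 of 6, and no erythroid marker of 8 passed. The part of these marker shifts in the values of the 10 genes was not tested. With the background reads as a covariate, no member passed and 32 genes did in all. In that fit the log2FC was -0.96 for Gja1 (edgeR adjusted p = 0.188), -0.72 for Kcnk2 (0.390), -1.35 for Piezo2 (0.478), -0.08 for Pkd2 (0.952) and +0.16 for Piezo1 (0.828). Every DEX loaded library had more background reads than every vehicle loaded library, so in loaded tibiae background and treatment cannot be told apart.

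**Figure D3:**
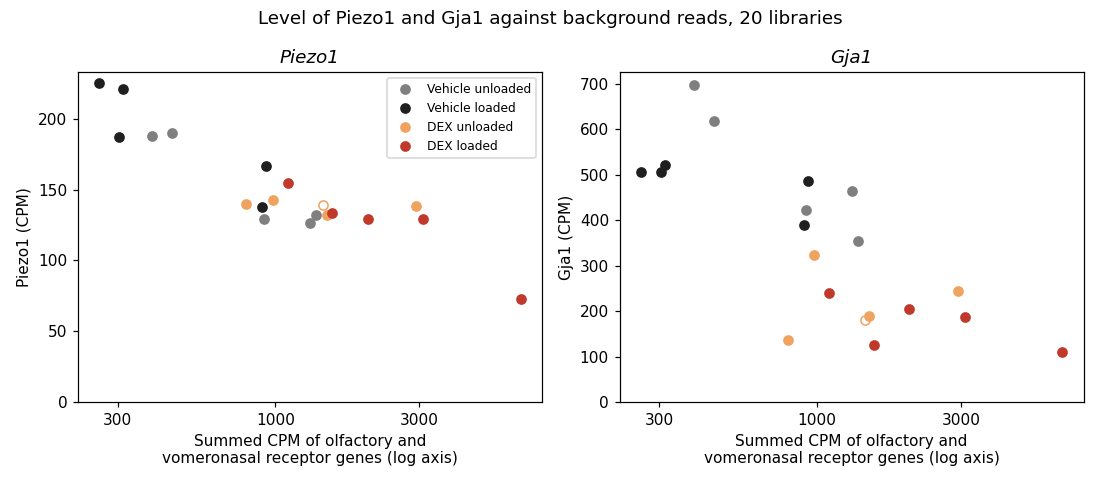
Level of Piezo1 (left) and Gja1 (right) in CPM against the summed CPM of olfactory and vomeronasal receptor genes on a log axis, with a point for each of the 20 libraries and an open point for DEX unloaded replicate 4. The library with the most background reads, 6494 CPM, has the lowest Piezo1 level, 72.8 CPM, and over all background levels Gja1 ran from 109 to 324 CPM in DEX and from 354 to 697 CPM in vehicle libraries.

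The same contrast in unloaded tibiae asks what DEX did without load. It uses other libraries, but the right tibiae came from the same mice as the loaded left ones by the study's design, so it is not an independent repeat. In this limb 3 members were significantly lower with DEX, Gja1, Kcnk2 and Tmem63b, and none was higher, against 6.84% of 19738 genes in either direction and 3.99% lower. With DEX unloaded replicate 4 in the fit, a library whose median correlation with its group, 0.663, was the highest of the 20, 5 members were lower, with Piezo2 and Pkd2 added, and 1, Tmem63a, was higher, while the share of all genes called rose to 15.2%. Without DEX unloaded replicate 3 none passed. At an unadjusted edgeR p under 0.05 there were 6 members, where 24.6% of all genes were, and DESeq2 called 5 members and 12% of all genes. Their median log2FC was -0.38, against 0.03 over all genes and -0.07 over those of at least 10 CPM, of which 6.78% were lower. The 3 genes were those whose groups did not overlap, as held for 6.4% of all genes tested in the lower direction.

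Gja1 had 354, 464, 618, 422 and 697 CPM in vehicle unloaded replicates 1, 2, 4, 5 and the unnumbered library, and 245, 324, 188 and 136 CPM in DEX unloaded replicates 1, 2, 3 and 5. Replicate 4, which is not in the fit, had 181 CPM, inside the DEX range. The log2FC was -1.19 ± 0.26, 2.28-fold lower (edgeR adjusted p = 0.0220), and the call was lost without DEX unloaded replicate 3 (adjusted p = 0.0975). Kcnk2 had 11.8, 13.4, 19.9, 16.2 and 18.4 CPM with vehicle and 9.53, 11.7, 6.05 and 5.34 CPM with DEX. Its highest DEX library lay just under its lowest vehicle library, with a log2FC of -0.96 ± 0.24 (edgeR adjusted p = 0.0339), and it lost the call without DEX unloaded replicate 3 or 5 or vehicle unloaded replicate 2, 4 or 5 (adjusted p from 0.0508 to 0.130). Tmem63b, the stretch-activated channel, had 34.6, 25.7, 31.5, 24.6 and 26.6 CPM with vehicle and 21.5, 19.5, 18.2 and 20.9 CPM with DEX. All DEX libraries were lower, with a log2FC of -0.50 ± 0.13 (edgeR adjusted p = 0.0461), but the call was lost without any single library other than the unnumbered vehicle one (adjusted p from 0.0517 to 0.169).

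Piezo1 had 132, 127, 190, 129 and 188 CPM with vehicle and 139, 143, 132 and 140 CPM with DEX in unloaded tibiae. The DEX libraries sat within the vehicle range and close together, and the log2FC was -0.13 ± 0.15 (95% interval -0.43 to 0.17, edgeR adjusted p = 0.633). Piezo2 (log2FC -0.998 ± 0.33) and Pkd2 (-0.54 ± 0.19) did not pass, with edgeR adjusted p of 0.0919 and 0.100 (0.0434 and 0.0379 with DEX unloaded replicate 4), and neither did Pkd1 (-0.26, adjusted p = 0.391), Trpv4 (-0.23, 0.640) or Panx1 (-0.05, 0.874). Tmem63a, the paralog of Tmem63b, had a log2FC of +0.41 ± 0.15 and did not pass (edgeR adjusted p = 0.127), although it did, at +0.44, once DEX unloaded replicate 4 entered the fit (adjusted p = 0.0404). Both paralogs thus had opposite signs in the unloaded limb, as they did in the loaded limb except with no filter on low counts, where Tmem63a was at -0.02.

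Osteoblast markers summed to 41517 to 145401 CPM in vehicle unloaded and 6302 to 35564 CPM in DEX unloaded libraries, with 7 of 12 lower and none higher (median log2FC -1.56). Osteocyte markers summed to 1996 to 2839 and 1117 to 1835 CPM, with 5 of 8 lower (median log2FC -0.82). Of the remaining lists, 5 of 9 periosteum and tendon, 3 of 7 B cell, 1 of 11 chondrocyte and 1 of 8 endothelial markers were lower, 6 of 8 neutrophil, 2 of 6 adipocyte and 1 of 6 Schwann cell markers were higher, and no muscle or erythroid marker passed. All 12 muscle markers nonetheless had a negative log2FC (median -1.64, against +0.53 in loaded tibiae). They summed to 19855 to 101877 CPM in vehicle unloaded and 7005 to 51503 CPM in DEX unloaded libraries. The part of these marker shifts in the members' values was not tested. With the background covariate, Gja1 at a log2FC of -0.96 (edgeR adjusted p = 0.0425) and Tmem63b at -0.51 (0.0420) passed, Tmem63a at +0.56 (0.0269) passed as higher, and Kcnk2 at -0.80 (0.0691) did not. In that fit 13.7% of all genes passed, against 6.84% without the covariate.

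**Figure D4:**
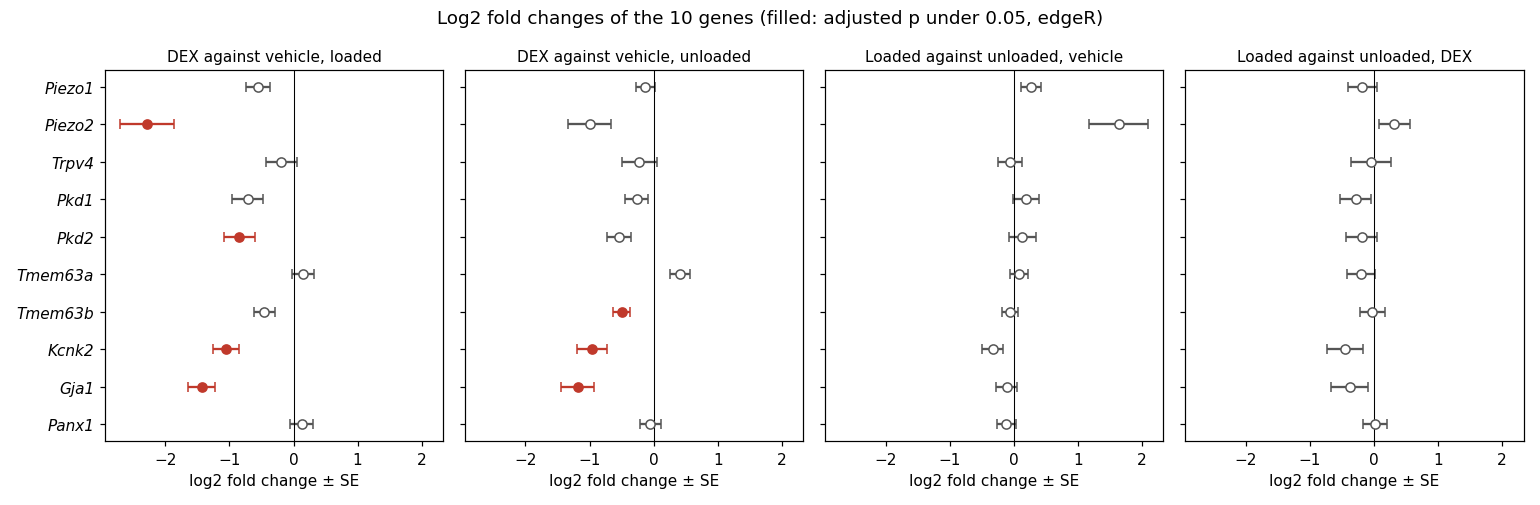
Log2FC with its SE for each gene in the 4 comparisons, from edgeR, with filled points for an adjusted p under 0.05. Gja1 is at -1.43 and -1.19 with DEX in loaded and unloaded tibiae, and no gene passes in either loading comparison.

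Loading was compared in each treatment, and no member passed. Both limbs came from the same mice, but the labels do not say which libraries share a mouse. The reported fits of loading and of the interaction therefore did not pair them. In vehicle mice 0 of 17982 genes, 0%, had an adjusted p under 0.05 by edgeR, with 1773 at an unadjusted p under 0.05, of which 1 was a member, and 143 by DESeq2, none of them a member. Both loading comparisons use the libraries of the DEX comparisons again. Piezo2 had 12.3, 14.95, 36.3, 19.4 and 11.7 CPM in vehicle unloaded tibiae against the 25.0 to 118 CPM of the loaded ones, a log2FC of +1.64 ± 0.46 (edgeR adjusted p = 0.328, against 0.00378 before adjustment). The groups overlapped through vehicle unloaded replicate 4. Piezo1 had a log2FC of +0.26 ± 0.15 (adjusted p = 0.570, 95% interval -0.04 to 0.57), Kcnk2 one of -0.33 ± 0.16 (0.515) and Gja1 one of -0.11 ± 0.17 (0.814). In DEX mice 0 of 22541 genes, 0%, passed by edgeR, with 958 at an unadjusted p under 0.05 and 0 by DESeq2. There Piezo1 had a log2FC of -0.18 ± 0.22 (adjusted p = 0.757), Piezo2 one of +0.32 (0.733) and Gja1 one of -0.38 (0.733). No cell type marker passed by edgeR, but their medians shifted. In vehicle mice the median log2FC was +1.42 for chondrocyte markers (2 of 11 negative) and -1.09 for muscle markers (12 of 12 negative). The other marker lists had medians of -0.35 to 0.50. In DEX mice it was +1.11 for muscle (1 of 12 negative) and -0.77 for osteoblast markers (12 of 12 negative), with the others at -0.57 to 0.40. The part of these shifts in the members' values was not tested.

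The difference between the limbs in the effect of DEX was tested as an interaction over 19 libraries, in which 0 of 23653 genes, 0%, passed by edgeR, with 2859 at an unadjusted p under 0.05 and 50 by DESeq2, none of them a member. The interaction was -0.46 ± 0.27 for Piezo1 (adjusted p = 0.440, 95% interval -0.995 to 0.08), -1.33 ± 0.58 for Piezo2 (adjusted p = 0.404, against 0.0324 before adjustment) and -0.27 for Gja1 (adjusted p = 0.676). A difference between loaded and unloaded limbs in the DEX effect was therefore not shown for any of the 10 genes, including those called in 1 limb alone. In the same fit the median interaction was -2.25 for chondrocyte markers (12 of 12 negative) and +2.24 for muscle markers (0 of 12 negative). The other marker lists had medians of -0.46 to 0.62, no marker passed by edgeR, and their part was not tested.

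Piezo1 was then set against each of the other 9 genes within a library, as the log2 ratio of their CPM, which depends on the scaling of the library only through the small prior count added to both. The 4 comparisons of 9 ratios gave 36 two-sided exact permutation tests on the same counts, and none passed after adjustment over the 36, where the lowest adjusted p was 0.0952. The smallest p the test can give is 0.00794 with 5 against 5 libraries and 0.0159 with 5 against 4, and 12 tests had an unadjusted p under 0.05. With 6 of the 36 tests at the smallest p of 5 against 5 libraries those 6 would pass, but no test could pass alone, so that none passed says little.

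In loaded tibiae the ratio of Piezo1 to Gja1 set the treatments apart in every library, without passing after adjustment. The log2 ratio of Piezo1 to Gja1 averaged -1.37 ± 0.17 (SD, n = 5) with vehicle and -0.46 ± 0.31 with DEX, a difference of 0.91 with groups that did not overlap (exact permutation p = 0.00794, adjusted p = 0.0952). The ratio to Piezo2 was higher by 1.44 (exact p = 0.0317, adjusted p = 0.104), and those to Kcnk2 and Pkd2 by 0.49 (exact p = 0.0794) and 0.28 (exact p = 0.0714). Against Tmem63a and Panx1 it went the other way, by -0.70 (exact p = 0.0159) and -0.69 (exact p = 0.0238). Against Pkd1 the ratio moved by 0.16 (exact p = 0.373), and against Tmem63b by -0.10 (exact p = 0.556), the smallest difference of the 9. By these differences Piezo1 lay between Gja1 and Piezo2 on one side and Tmem63a and Panx1 on the other, nearest to Tmem63b and Pkd1.

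In unloaded tibiae the ratio of Piezo1 to Gja1 averaged -1.72 ± 0.19 with vehicle and -0.62 ± 0.52 with DEX, higher by 1.10 (exact p = 0.0159, adjusted p = 0.0952). Those to Kcnk2 and Pkd2 were higher by 0.87 and 0.40, each with groups that did not overlap and the same exact p of 0.0159. Against Tmem63b the difference was 0.38 (exact p = 0.0476), against Piezo2 0.79 (exact p = 0.0794), against Tmem63a -0.52 (exact p = 0.0317) and against Pkd1 0.12 (exact p = 0.175). For Tmem63b, at -0.10 in loaded tibiae, and Trpv4, at -0.38 in loaded and 0.22 in unloaded tibiae, the limbs differed in sign, with exact permutation p of 0.556, 0.270 and 0.524.

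With loading in vehicle mice the ratio of Piezo1 to Kcnk2 averaged 3.25 ± 0.18 in unloaded and 3.83 ± 0.21 in loaded tibiae. Every loaded library was above every unloaded library, a difference of 0.58 (exact p = 0.00794, adjusted p = 0.0952). The ratio to Gja1 was higher by 0.34 (exact p = 0.0317), that to Panx1 by 0.38 (exact p = 0.0873), and that to Piezo2 differed by -1.20 (exact p = 0.0317). In DEX mice no ratio differed with loading at an unadjusted exact p under 0.05, and all adjusted p were at least 0.416.

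**Figure D5:**
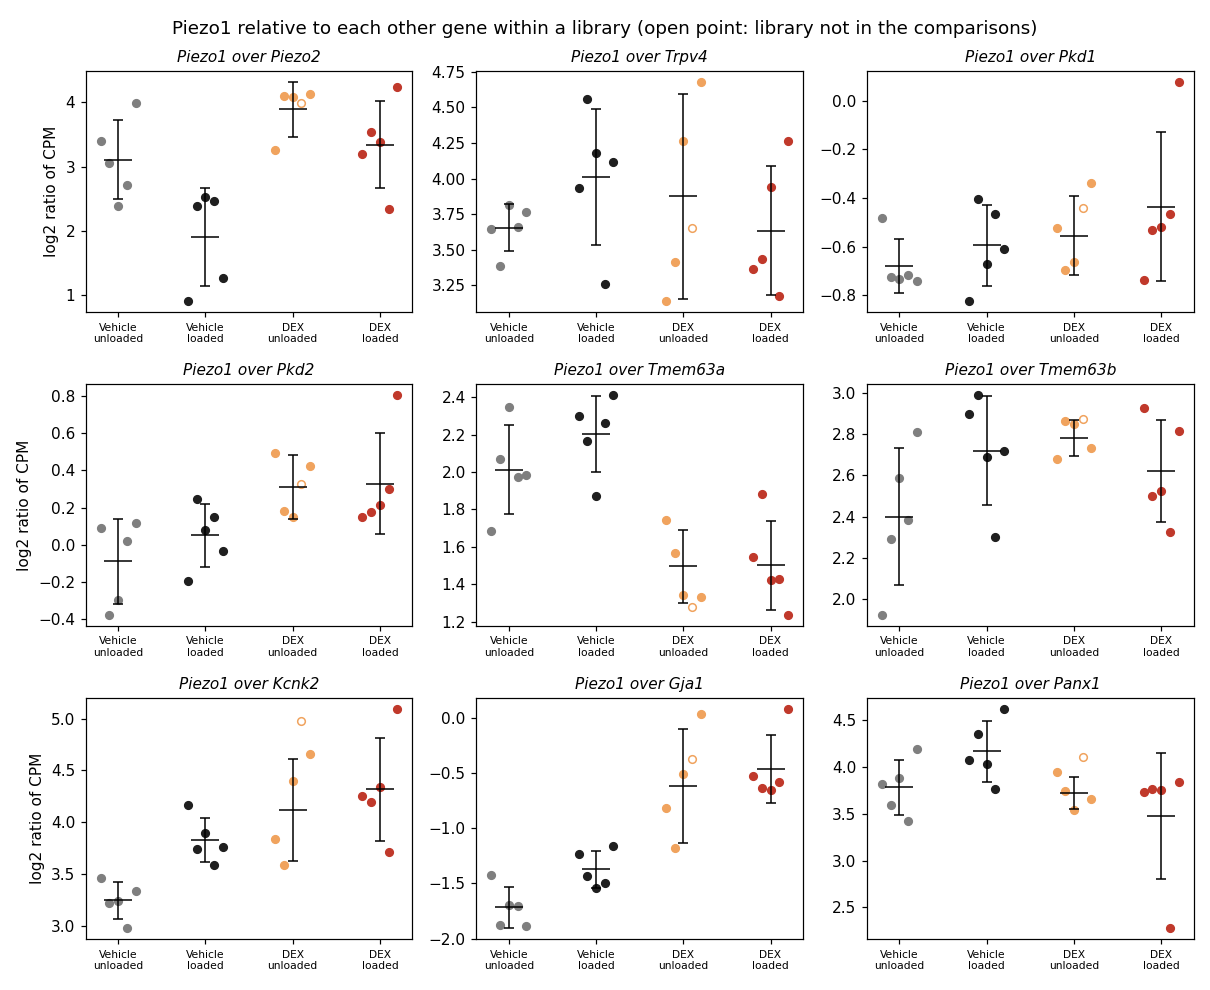
Log2 ratio of Piezo1 to each of the other 9 genes by library, with lines for group means, bars for the SD and an open point for DEX unloaded replicate 4, which is in no comparison. The ratio to Gja1 is higher in DEX (means -0.62 and -0.46) than in vehicle libraries (-1.72 and -1.37), and that to Tmem63a is lower.

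Across the 19 libraries, the 5 genes whose log2 CPM followed that of Piezo1 most closely, of 10349 genes of at least 10 CPM on average, were Zswim8 (Pearson r = 0.972), Rnf187 (0.966), Dctn2 (0.963), Carm1 (0.962) and Myo1c (0.960). Of the members, Pkd1 (r = 0.907, rank 116) and Pkd2 (r = 0.876, rank 315) came closest. Gja1 (r = 0.724), Tmem63b (0.698), Piezo2 (0.636) and Kcnk2 (0.598) followed, with Tmem63a (0.374), Trpv4 (0.366) and Panx1 (-0.270) last. These values describe libraries that share treatment, background reads and depth.

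Other genes around these channels were counted in 5 lists. Of other channels proposed as mechanosensors or related to the members, 3 of 20 tested were significantly higher and 1 lower with DEX in loaded tibiae (median log2FC 0.21), where 12.9% of all genes were higher. Trpv3, a heat-responsive channel of the TRPV family, had a log2FC of +2.00, Kcnk10, the TREK-2 potassium channel, +2.51, and Tmem150c, linked to slowly adapting mechanical currents, +1.77, whereas Lrrc8a, the core subunit of the volume-regulated anion channel, had -0.40 (edgeR adjusted p from 0.0121 to 0.0468). Of other connexins and pannexins, 3 of 11 were higher, among them Gjc3 (+2.16) and Panx2 (+2.20), and 1 was lower, Panx3 (-1.18), a pannexin of osteoblasts and chondrocytes (edgeR adjusted p from 0.0225 to 0.0443 for these genes, median log2FC of the list 1.36). Gjc3, a connexin, was opposite in sign to Gja1, and the 5 raised genes named from both lists were scarce, at means of 0.710 to 1.10 CPM with vehicle and 3.24 to 4.25 CPM with DEX. Such genes entered the test through the DEX group, which also held more background reads, and with at least 10 counts required in every library no gene of the 5 lists was higher, while 0, 1, 3, 4 and 3 were lower. With the background covariate none of the 5 lists had a gene that passed in loaded tibiae.

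Of the Piezo1 regulators and downstream genes, 5 of 28 were lower in loaded tibiae and none higher (median log2FC -0.25), where 8.35% of all genes and 14.4% of those of at least 10 CPM were lower. They included Ptgs2, the inducible cyclooxygenase, at -1.89, Mdfic, a PIEZO1-binding protein, at -0.55, Wwtr1, the transcriptional coactivator TAZ, at -0.78, and its target Ccn1 at -0.89 (edgeR adjusted p from 0.0136 to 0.0216). Hes1, a Notch target gene, had a log2FC of -0.12 ± 0.22 (edgeR adjusted p = 0.723). Of the primary cilium genes, where the polycystins reside, 7 of 24 were lower and 1 higher (median log2FC -0.31). Ift20, an intraflagellar transport gene, had a log2FC of -1.11, Smo, the Hedgehog signal transducer, -0.72, and Kif3a, the ciliary kinesin, -0.65, whereas Pkhd1, as scarce at 0.435 CPM with vehicle and 3.37 CPM with DEX, had +3.01 (edgeR adjusted p from 0.00253 to 0.0169). Of the integrin, focal adhesion and nuclear linkage genes, 5 of 18 were lower and none higher (median log2FC -0.27), among them Lmna, the lamin A/C gene, at -1.21, Itgav at -0.74, Ptk2, focal adhesion kinase, at -0.68 and Parva at -0.63 (edgeR adjusted p from 0.00576 to 0.0346). With normalization factors taken from genes of at least 10 CPM, which set the median of all genes to 0.18 rather than 0.00, the 5 lists in this order had 4 higher and 0 lower, 3 and 0, 1 and 2, 1 and 3, and 1 and 3, so the lists' balance depends on the scaling. Without DEX loaded replicate 4 the lists had 3 and 0, 2 and 1, 0 and 5, 1 and 5, and 0 and 3, and leaving out each of the 10 libraries in turn gave 3 to 5 and 0 to 1, 2 to 4 and 0 to 1, 0 to 1 and 3 to 8, 1 and 4 to 9, and 0 and 3 to 7.

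In unloaded tibiae, 1 of 21 other channels was higher, Scnn1a (+0.88), and 1 lower, Cacna2d1 (-1.30), where 2.86% of all genes were higher and 3.99% lower, and of the connexins and pannexins only Gjc1 of 10 passed, at -0.61. Of the Piezo1 regulators and downstream genes 5 of 27 were lower, namely Wwtr1 (-0.78), Ccn1 (-1.24), Camk2d (-0.55), Camk2b (-1.40) and Hes1 (-0.85 ± 0.23, edgeR adjusted p = 0.0494). Hes1 had 10.6 ± 2.47 CPM with vehicle and 5.78 ± 1.56 CPM with DEX, and its call was lost in 7 of the 9 fits that left out a library, all but those without DEX unloaded replicate 2 or the unnumbered vehicle library. Of the cilium genes 3 of 24 were lower, Ift20 (-0.81), Kif3a (-0.75) and Evc (-0.57), and of the focal adhesion genes 2 of 18, Ptk2 (-0.77) and Fermt2 (-0.86). Without DEX unloaded replicate 3 only 1 gene of the 5 lists passed, a focal adhesion gene that was lower, and with the replicate block 1 channel and 1 Piezo1 regulator or downstream gene. Over the 9 fits that left out a library, the lower counts ran from 0 to 1, 0 to 1, 0 to 7, 0 to 3 and 1 to 3, and up to 3 focal adhesion genes were higher. With the background covariate the focal adhesion list had 7 higher and 2 lower, and with factors from genes of at least 10 CPM 2 higher and 2 lower. No gene of the 5 lists passed with loading in either treatment or in the interaction by edgeR, while DESeq2 called 2 with loading in vehicle mice, 0 in DEX mice and 1 in the interaction.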

How the data were processed

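RNA of whole tibiae was sequenced with a stranded total RNA kit (SMARTer Stranded Total RNA-Seq v2 Pico, per the labels). The authors deposited a table of expected counts per gene for 20 libraries, and the submitters' processing notes name RSEM 1.2.28, STAR 2.7.10a and GRCm38. The annotation release and the strand setting of the counting are not given in the sources used here. Of the values, 10.6 to 14.0% per library were not whole, and 0 other columns of per-sample values were left unused. Replicates differed by 8.82 to 113 chi-square units per gene, so none was counted as a duplicate.

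Identifiers were matched to GENCODE M21 for 54409 of 54446 genes. Expected counts were rounded and tested over all genes with edgeR 4.0.16 (R 4.3.3; filterByExpr, TMM, quasi-likelihood F test, Benjamini-Hochberg adjustment, threshold 0.05). The fit for each pair of groups held only those groups, and the interaction held 19 libraries. The SE is the size of the log2 fold change over the square root of F, and 95% intervals are 1.96 SE to either side. CPM used TMM over all 20 libraries, RPKM divided CPM by the summed exon length, and ratios added a prior count of 2, scaled to each library. Ratios were tested with two-sided exact permutation tests. DESeq2 1.42.0 (Wald test), other scalings and filters, all 20 libraries, left-out libraries, a replicate block (by replicate number) and a background covariate were alternatives. The last was the summed CPM of 1965 olfactory and vomeronasal receptor genes. The fit was tested on simulated data.

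The members and lists were chosen with earlier results of these data known. Named are all 10 members, up to 4 genes of each list with the lowest p in a comparison, Hes1, and the 5 genes most correlated with Piezo1. The values of 1 gene that this rule would name are not reported here. DEX unloaded replicate 4 was left out because the study removed a DEX data set numbered 4, and which limb it came from is not certain. Both limbs of a mouse were used, but the labels do not say which libraries share a mouse and give no batch, and p-values measure the spread between these libraries. The depth, 4641437 to 13032018 counts per library, left 1 member, Kcnk2, with as few as 34 counts in a library, and intervals cover the spread between libraries only as the model estimates it.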

Additional observations from a re-analysis of the deposited data

Results flagged for a closer look

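Values that stood far from the rest of their group of 4 or 5 libraries, by Dixon's test at its 95% critical value, were found in 10 of 80 groups of member levels, Piezo1 ratios and background reads, where chance flags about 1 in 20. For Piezo2, DEX unloaded replicate 1 had 14.4 CPM against 7.53 to 8.11 in the other libraries of its group, and DEX loaded replicate 5 had 6.83 CPM against 12.2 to 14.2. In vehicle loaded replicate 5, Tmem63a had 28.6 CPM against 41.6 to 45.4 and Gja1 390 CPM against 486 to 520. In vehicle loaded replicate 1, Panx1 had 12.9 CPM against 8.97 to 10.0. Of the log2 ratios, Piezo1 to Piezo2 was 3.25 in DEX unloaded replicate 1 against 4.09 to 4.13, and Piezo1 to Pkd1 was -0.48 in vehicle unloaded replicate 1 against -0.74 to -0.72. Piezo1 to Pkd2 was 0.81 in DEX loaded replicate 5 against 0.15 to 0.30, and Piezo1 to Gja1 was 0.083 there against -0.66 to -0.53. Piezo1 to Panx1 was 2.28 in DEX loaded replicate 4, the library with the most background reads, against 3.73 to 3.84.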

How the results depend on the processing

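Of 1295 refitted log2 fold changes of members and named genes, 1073 kept their direction and side of the threshold, 175 lost and 26 gained significance and 21 changed sign. No ratio of Piezo1 passed under any alternative, which the size of the design left little room for and which says nothing of stability. In loaded tibiae DEX called 4 members, but 7 by DESeq2, with no filter and with all 4 groups in 1 model, 0 with the background covariate, and 3 to 7 with a library left out (7 without DEX loaded replicate 2, 3 without DEX loaded replicate 5, vehicle loaded replicate 1 or the unnumbered one). In unloaded tibiae it called 3, but 5 by DESeq2, 6 with all 20 libraries and 6 with DEX loaded replicate 4 left out in place of the unloaded one, and 0 to 4 with a library left out (0 without DEX unloaded replicate 3, 1 without DEX unloaded replicate 5 or vehicle unloaded replicate 2, 4 or 5). Same-numbered limbs correlated at -0.13 to 0.52 and not every library correlated best with its own number, so the numbers were not taken to pair the libraries. The replicate block joined libraries of the same number, which in the DEX comparisons come from different mice and share the number only. With this block, on fewer libraries, 0 members passed in unloaded tibiae, and the same libraries without the block also gave 0. The cause of the other changes was not tested.

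The log2FC that changed sign all belonged to values that were not significant in the reported fit, apart from Panx2. With DEX in loaded tibiae these were Hes1 (0.075, factors from genes of at least 10 CPM), Tmem63a (-0.019, no filter), Panx1 (-0.10 with no filter, -0.025 without DEX loaded replicate 4, whether as a left-out library or in place of the unloaded one, and -0.18 with the background covariate, with -0.025 to 0.19 over left-out libraries), Piezo1 (0.16, covariate) and Panx2 (-0.71, covariate). In unloaded tibiae they were Piezo1 (0.12 with the replicate block, 0.12 on those libraries without it, 0.075 with the covariate), Pkd1 (0.0012 with the block, 0.0036 without), Trpv4 (0.048 on the block's libraries without it) and Panx1 (0.053 with the covariate, and -0.11 to 0.032 over left-out libraries, positive without DEX unloaded replicate 1). With loading, Gja1 in vehicle mice was 0.021 with the block, 0.0021 on its libraries without it and -0.21 to 0.015 over left-out libraries, Piezo1 in DEX mice 0.011 with the covariate, and the Gja1 interaction 0.036 with it.

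Calls rose and fell over all genes too, so the member counts are to be read beside them. DEX called 4206 genes in loaded tibiae (21.3% of those tested), but 5651 by DESeq2 (28.6%), 9016 with no filter (20.2%), 8446 with all 4 groups in 1 model (35.7%), 2326 with the replicate block (1120 on the same libraries without it), 2203 with at least 10 counts in every library and 32 with the covariate, with 2696 to 5822 over left-out libraries (2696 without the unnumbered vehicle loaded one). In unloaded tibiae it called 1351 (6.84%), but 2374 by DESeq2 (12%), 2922 with all 20 libraries (15.2%), 2709 with the covariate and 520 with the block (566 on its libraries without it), with 129 to 1867 over left-out libraries (129 without DEX unloaded replicate 3).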
